A study of Mus musculus with 12 samples.

Results

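The 9 genes described here encode integrin subunits carried by macrophages, and they were taken by name from the 35275 genes counted in every library. The alpha chains were Itgam, Itgal, Itgav, Itga4 and Itga6, and the beta chains were Itgb1, Itgb2, Itgb5 and Itgb7. The list of names uses no measured value, but it was drawn up with earlier results of these data known. All 9 passed the filter on low counts and entered the test.

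Integrins are adhesion receptors made of 1 alpha and 1 beta chain, which must pair to reach the cell surface. On leukocytes, Itgb2 (CD18) joins Itgam (CD11b) in Mac-1, the receptor for the complement fragment iC3b, and Itgal (CD11a) in LFA-1, the receptor for ICAM-1. Itga4 pairs with Itgb1 in VLA-4, which binds VCAM-1 and fibronectin, or with Itgb7 in the gut-homing receptor that binds MAdCAM-1. Itgav pairs with Itgb5 or Itgb1 in receptors for vitronectin and other RGD proteins, and Itga6 with Itgb1 in a laminin receptor. Binding strength is set from inside the cell, where talin and kindlin dock on the beta tail, and outward signals pass through Src, Syk and FAK family kinases.

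The cells were wildtype mouse bone marrow derived macrophages (BMDMs), grown for 6 days with IL-4, IL-10 and M-CSF, the cytokines used for alternative (M2) activation. Through those 6 days they also received the solvent DMSO, the PARP inhibitor olaparib, or methyl-nicotinamide (MNA), a methylated product of nicotinamide metabolism. Each group held 4 bulk RNA-seq libraries, numbered 1 to 4, so all 12 shared the genotype and the cytokines. The age, strain and sex of the mice are not in the labels, which also do not say whether the libraries of a group came from separate mice. The study's methods give an age range in weeks and either sex for mice used for bone marrow. Its legends give 4 donor mice for the RNA-seq but do not tie a library to a mouse. The p-values therefore measure the spread between these libraries. The question was which genes differ between olaparib and control and between MNA and control.

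Libraries held 21146291 to 31446849 counts. MNA replicate 2 stood apart. Over 12849 tested genes its root mean square log2 difference was 0.29 from the DMSO mean and 0.89 from the mean of the other 3 MNA libraries, and 81.7% of genes lay nearer to DMSO. For the integrins it lay within the DMSO range for 8 of 9 genes (Itgam was just under it) and nearer to the DMSO mean for all 9. It is therefore shown apart, and tests are given with all 12 libraries and again without it. Since it was set apart for its likeness to DMSO, the p-values, calls and lack of overlap without it follow partly from that choice. The cause of its position was not tested. All 8 macrophage markers passed the filter, and their summed level was 3785 to 9346 CPM in the 12 libraries (CPM are a gene's counts scaled to the TMM-normalised size of its library), with Fcgr1 at 1.31 CPM or less in each group's mean. These markers also differed between groups. Their sum was 4097 to 5269 CPM with DMSO, 7657 to 9346 CPM with olaparib and 5032 to 6780.0 CPM in MNA replicates 1, 3 and 4, so that olaparib and DMSO did not overlap. Adgre1, Mertk and Lyz2 were called higher and Cd68 lower with olaparib. With MNA, Csf1r and Cd14 were called higher and Mrc1 lower (679 CPM with DMSO, 149 CPM in MNA replicates 1, 3 and 4). Their part in the integrin results was not tested.

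The genes lie on the mouse GRCm38 assembly, in the GENCODE vM21 annotation, where all are protein coding. Itgam spans chr7:128062640-128118491 on the plus strand and Itgal chr7:127296260-127335138 on the plus strand. Itgav (chr2:83724397-83806916), Itga4 (chr2:79255426-79333123) and Itga6 (chr2:71745616-71858416) lie on the plus strand of chromosome 2. Itgb1 occupies chr8:128685654-128733200, Itgb2 chr10:77530252-77565708 and Itgb5 chr16:33829665-33949338, all on the plus strand. Itgb7 lies on the minus strand at chr15:102215995-102231944.

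The 250 bases before the start of Itgam and of Itgb7 are printed because they belong to the member with the largest rise in CPM among those with a promoter sequence and to the member with the largest drop. They come from RefSeq on GRCm38.p6, chr7:128062390-128062639 (plus strand) for Itgam and chr15:102231936-102232185 (minus strand) for Itgb7, and read 5′ to 3′ along the gene. The start is that of RefSeq, which for Itgb7 lies 9 bases inside the GENCODE gene given above, so the last 9 bases of the Itgb7 stretch are within that gene model. Capitals mark every GAGGAA (the core bound by PU.1, the macrophage lineage factor) and every GGGCGG (the GC box), on either strand, so that they also appear as TTCCTC and CCGCCC.
Itgam: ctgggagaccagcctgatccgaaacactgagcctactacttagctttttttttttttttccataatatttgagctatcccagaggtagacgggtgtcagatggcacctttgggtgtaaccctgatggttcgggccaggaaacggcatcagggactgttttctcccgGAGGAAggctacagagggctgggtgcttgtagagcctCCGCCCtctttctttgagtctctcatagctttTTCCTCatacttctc
Itgb7: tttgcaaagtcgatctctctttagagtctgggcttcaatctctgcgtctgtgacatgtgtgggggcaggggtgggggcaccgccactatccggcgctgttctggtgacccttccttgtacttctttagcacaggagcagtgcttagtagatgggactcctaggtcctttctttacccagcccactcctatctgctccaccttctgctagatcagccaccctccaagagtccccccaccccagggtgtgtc

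The Itgam stretch held GAGGAA 84 bases before the start, TTCCTC 15 bases before it and CCGCCC 47 bases before it, and the Itgb7 stretch held neither word. Of the 6 members with a promoter in that table, GAGGAA was also found in Itgav, 218 and 7 bases before the start, and in Itgb1, 9 bases before it. The GC box was also found in Itga4 (114 bases before), in Itgb1 (151 before) and at 3 places in Itgb5 (199, 63 and 34 before). Among all 32851 promoter stretches of 250 bases, 23.3% held GAGGAA and 32.7% held GGGCGG, so both words are common. A match is a string of letters and does not show binding. Itgal, Itga6 and Itgb2 have no sequence there.

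Itgb2 was by far the most abundant of the 9 RNAs. Levels between genes are compared per length, as CPM per kilobase of merged exons. In the DMSO group, Itgb2 stood at 754 ± 40.1 (SD, n = 4), followed by Itgb1 at 181 ± 8.82, Itgam at 87.5 ± 12.6, Itgb7 at 58.8 ± 6.59 and Itgb5 at 47.9 ± 4.30 CPM per kb. Itgav (7.47 ± 0.485), Itga4 (4.28 ± 0.571), Itgal (1.76 ± 0.301) and Itga6 (1.31 ± 0.182) came last on that scale. Itgal and Itga6 were neighbours whose libraries overlapped, and the other neighbours in this order did not overlap. With olaparib, Itgam moved past Itgb1 to the second place (292 ± 29.2 against 152 ± 5.65 CPM per kb), and Itgal and Itgav overlapped. In the 3 other MNA libraries Itgb1 and Itgam overlapped (168 ± 5.73 and 150 ± 25.1), as did Itgav with Itgb7 and Itgb7 with Itga4.

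Against DMSO, 5 of the 9 subunits were higher with olaparib (Itgam, Itgal, Itga4, Itgb2 and Itgb5) and 1 was lower (Itgb1), in edgeR's quasi-likelihood test at an adjusted p under 0.05. That fit has no block, and over all 12849 genes tested it called 14.3% higher and 12.8% lower. With the replicate number as a block over all 12 libraries, 5 were higher and 2 lower, as Itgb7 joined. The share of all genes called with the block is not given, so these block counts have no background here. The libraries of both groups did not overlap for 6 of 9 subunits, against 41.0% of all genes. The median log2 fold change was 0.30 over the 9 subunits and 0.00 over all genes tested.

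With all 4 MNA libraries, 2 of 9 were higher with MNA than with DMSO (Itgal and Itgb2) and 0 were lower, beside 16.3% and 12.3% of all genes. At an unadjusted p under 0.05, edgeR had 4 higher (Itgam, Itgal, Itga4 and Itgb2) and 2 lower (Itga6 and Itgb7), beside 23.4% and 21.4% of all genes. DESeq2 called 3 higher, as Itgam joined, and 0 lower, but it gave no p for Itgb7 in the 12 libraries. The shares of all genes in DESeq2 are not given. The groups did not overlap for 0 of 9 subunits (12.4% of all genes), since MNA replicate 2 lay with DMSO. Without that library, 4 were higher (Itgam, Itgal, Itga4 and Itgb2) and 2 lower (Itga6 and Itgb7), beside 27.2% and 26.9% of 13023 genes, and 6 of 9 did not overlap (54.2% of all genes). With all 12 libraries, the shares of subunits called higher were 55.6% with olaparib and 22.2% with MNA, beside 14.3% and 16.3% of all genes. Without MNA replicate 2 they were 55.6% and 44.4%, beside 22.5% and 27.2%. The shares called lower were 11.1% with olaparib and 0% with MNA in all 12 libraries, and 22.2% for each without that library. With only 9 subunits, these lower shares are not read as a difference from all genes. Leaving out MNA replicate 2 also altered the olaparib comparison, as all 12 libraries share 1 estimate of the spread. The olaparib calls were then 5 higher and 2 lower, beside 22.5% and 21.2% of all genes. Olaparib and MNA were compared with the same DMSO libraries, so likeness between them is not independent evidence.

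Between the treatments, 2 of 9 were higher with olaparib than with MNA (Itgam and Itgal) and 0 were lower in edgeR, against 10.9% of all genes in each direction (10.9% higher, 10.9% lower). At an unadjusted p under 0.05, 2 were higher (Itgam and Itgal) and 1 was lower (Itgb1), beside 16.8% and 18.4% of all genes, and DESeq2 called Itgb1 lower. The libraries did not overlap for 3 of 9 subunits, against 21.2% of all genes. Without MNA replicate 2, 3 were higher (Itgam, Itgal and Itgb7) and 1 lower (Itgb2), beside 21.5% and 20.7% of all genes, and 6 of 9 did not overlap (46.2% of all genes).

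**Figure D1:**
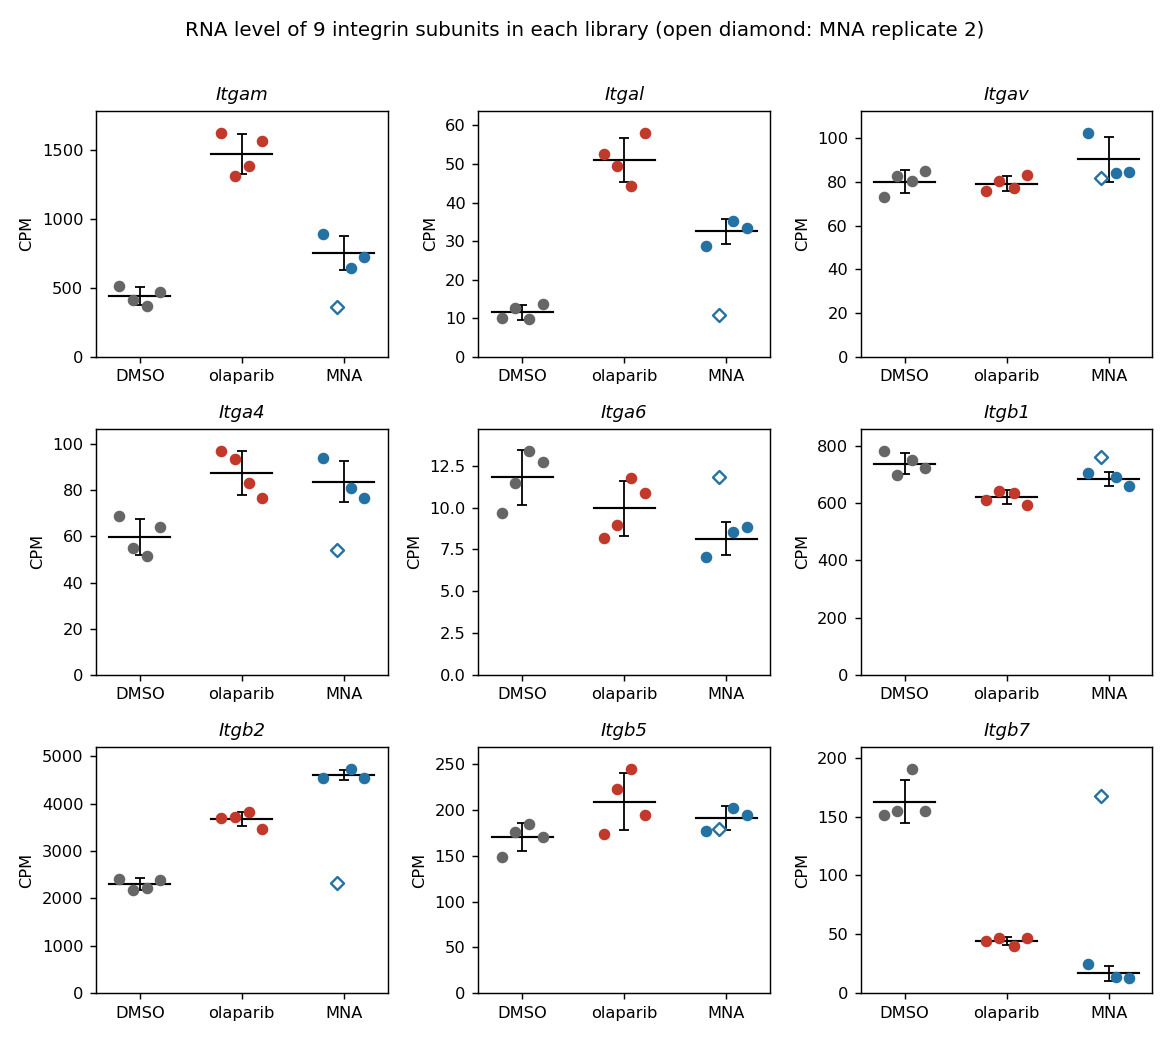
RNA level of the 9 subunits in each library, in CPM on a linear axis from 0, by treatment. Points are libraries, bars the mean with its SD (n = 4, or n = 3 for MNA), and the open diamond is MNA replicate 2, which is left out of the MNA mean. Itgb2 was higher in all olaparib and in 3 MNA libraries, Itgam was highest with olaparib, and Itgb7 was lowest in the 3 other MNA libraries.

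Itgb2, the beta chain of the leukocyte integrins, rose with both agents. Its level was 2414, 2175, 2216 and 2396 CPM in the DMSO libraries, 3700, 3712, 3831 and 3459.7 CPM with olaparib, and 4538, 4722 and 4550.2 CPM in MNA replicates 1, 3 and 4. MNA replicate 2 stood at 2322 CPM, among the DMSO libraries. The lowest olaparib library was above the highest DMSO library, and the 3 other MNA libraries were above every olaparib library. The log2 fold change against DMSO was 0.68 ± 0.18 (SE) with olaparib (1.60-fold, adjusted p = 0.017) and 0.81 ± 0.18 with MNA (adjusted p = 0.0154, and 0.0538 or 0.0522 without MNA replicate 3 or 4). Without MNA replicate 2 these were 0.67 ± 0.05 (adjusted p = 7.34e-07) and 1.0 ± 0.06 (adjusted p = 1.51e-08). The difference of olaparib from MNA was not called with all libraries (log2 fold change -0.13 ± 0.18, adjusted p = 0.635), whereas without MNA replicate 2 the level was lower with olaparib by 0.32 ± 0.06 on the log2 scale (-0.32, adjusted p = 5.57e-04).

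Itgam, the alpha chain of Mac-1, rose with olaparib. It stood at 511, 415, 365 and 467 CPM with DMSO and at 1619, 1309, 1385 and 1565 CPM with olaparib. MNA replicates 1, 3 and 4 held 891, 644 and 720.4 CPM, and replicate 2 held 361 CPM. The 3 groups did not overlap once that library was set apart, with MNA in between. The change with olaparib was 1.74 ± 0.22 (3.34-fold, adjusted p = 3.53e-04). The change with MNA was 0.57 ± 0.21 (adjusted p = 0.0596), which is not a call in the main edgeR fit. It is one in edgeR with the replicate block (adjusted p = 0.0342) and in DESeq2 (adjusted p = 0.0275). Without replicate 2 the change with MNA was 0.77 ± 0.12 (adjusted p = 1.22e-04). Olaparib exceeded MNA by 1.17 ± 0.22 on the log2 scale (adjusted p = 0.00301), and by 0.97 ± 0.13 without replicate 2 (adjusted p = 3.90e-05). The Itgam exons overlap on the same strand with those of Gm49368, a predicted gene that is not in the tables used here. Of the 31-base words in Itgam transcripts, 67.2% also occur in Gm49368, and 1.12% in any other gene, so reads of both models cannot be told apart.

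Itgal, the alpha chain of LFA-1, was a low RNA and had the largest rise among the 9 on the log2 scale with olaparib. Its level was 10.0, 12.7, 9.72 and 13.7 CPM with DMSO and 52.5, 49.5, 44.4 and 58.0 CPM with olaparib. It was 28.8, 35.3 and 33.3 CPM in MNA replicates 1, 3 and 4 and 10.8 CPM in replicate 2. As with Itgam, MNA replicates 1, 3 and 4 lay between the DMSO and the olaparib libraries without overlap. The log2 fold change was 2.14 ± 0.29 with olaparib (4.42-fold, adjusted p = 5.65e-04) and 1.23 ± 0.28 with MNA (2.34-fold, adjusted p = 0.0168, and 0.0571 or 0.0555 without MNA replicate 3 or 4), or 1.49 ± 0.12 without replicate 2 (adjusted p = 3.38e-07). Olaparib exceeded MNA by 0.92 ± 0.28 (adjusted p = 0.034) and, without replicate 2, by 0.65 ± 0.12 (adjusted p = 6.51e-04).

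Because both alpha chains share Itgb2, their per-length ratio to it describes these pairs, and not the whole family. Itgax, a more abundant RNA whose product also pairs with Itgb2, has no ratio here. It stood at 344 CPM per kb with DMSO, 530 with olaparib and 454 in MNA replicates 1, 3 and 4. Itgb2 stood at 754, 1204 and 1508 CPM per kb in the same order. The log2 ratio of Itgam to Itgb2 was -3.12 ± 0.15 with DMSO, -2.05 ± 0.19 with olaparib and -3.35 ± 0.26 in MNA replicates 1, 3 and 4. The olaparib libraries (-2.22 to -1.86) lay above the DMSO libraries (-3.32 to -2.96), and the MNA libraries (-3.59 to -3.07) overlapped with DMSO. The ratio of Itgal to Itgb2 went from -8.76 ± 0.25 to -7.28 ± 0.22 with olaparib and -8.26 ± 0.13 in MNA replicates 1, 3 and 4. With all 4 MNA libraries it was -8.41 ± 0.32 and overlapped with DMSO. Relative to their partner, both alpha chains thus stood higher with olaparib. Itgal also did in MNA replicates 1, 3 and 4, where Itgam and Itgb2 kept a similar ratio. These are RNA ratios and not numbers of surface receptors.

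Itgb7 moved in the opposite direction. Once MNA replicate 2 was set apart, it had the widest log2 difference of the 9 between MNA and each other group. Between olaparib and DMSO, Itgal differed more (2.14, against -1.88 for Itgb7). It stood at 152, 154, 190.1 and 155 CPM with DMSO, at 44.5, 46.6, 39.6 and 46.5 CPM with olaparib, and at 24.2, 13.4 and 12.5 CPM in MNA replicates 1, 3 and 4. MNA replicate 2 held 167 CPM. No olaparib library and none of the 3 other MNA libraries reached the DMSO range, and those MNA libraries were also below every olaparib library. In the fit of 12 libraries the difference of olaparib from DMSO was -1.88 ± 0.68 (3.67-fold lower, adjusted p = 0.0575), which is not a call. With the replicate block it was -1.91 ± 0.60 (adjusted p = 0.0404), and without MNA replicate 2 it was -1.88 ± 0.15 (adjusted p = 8.33e-07). For MNA the difference was -1.58 ± 0.67 with all libraries (adjusted p = 0.089) and -3.29 ± 0.19 without replicate 2 (9.79-fold lower, adjusted p = 1.26e-08). The order of the treatments depended on that library. Olaparib minus MNA was -0.30 ± 0.66 with it (adjusted p = 0.791) and 1.41 ± 0.18 without it (adjusted p = 2.95e-05).

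Itga4, which pairs with Itgb7 or Itgb1, rose moderately with olaparib. Its level was 68.7, 54.8, 51.5 and 64.1 CPM with DMSO, 96.9, 93.7, 83.0 and 76.6 CPM with olaparib, and 93.8, 80.9 and 76.6 CPM in MNA replicates 1, 3 and 4, with 54.3 CPM in replicate 2. Both treatments lay above the DMSO libraries once replicate 2 was set apart, and they overlapped with each other. The change was 0.55 ± 0.15 with olaparib (adjusted p = 0.0192), a call that was lost without DMSO replicate 2, DMSO replicate 3 or olaparib replicate 2 (adjusted p up to 0.0586). It was 0.35 ± 0.15 with MNA (adjusted p = 0.0877) and 0.49 ± 0.11 without MNA replicate 2 (adjusted p = 0.0016). On the opposite strand, Cerkl shares 7.64% of the 31-base words of Itga4 and had 279 counts over the 12 libraries in all.

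The pair that differed most was Itga4 with Itgb7. Its log2 ratio per length was -3.78 ± 0.32 with DMSO, -1.36 ± 0.18 with olaparib and 0.05 ± 0.38 in MNA replicates 1, 3 and 4, and -3.96 in replicate 2. On this per-length scale, Itgb7 RNA stood 13.8-fold above Itga4 RNA in the DMSO group and 2.56-fold above it in the olaparib group. In the 3 MNA libraries the per-length levels were about equal. These folds depend on the merged exon lengths used (13978 bases for Itga4, 2770 for Itgb7). The differences between groups do not. The ratio of Itga4 to Itgb1 moved less, from -5.41 ± 0.17 to -4.61 ± 0.14 with olaparib and -4.81 ± 0.11 in MNA replicates 1, 3 and 4. With all 4 MNA libraries it was -5.01 ± 0.40 and overlapped with DMSO.

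**Figure D2:**
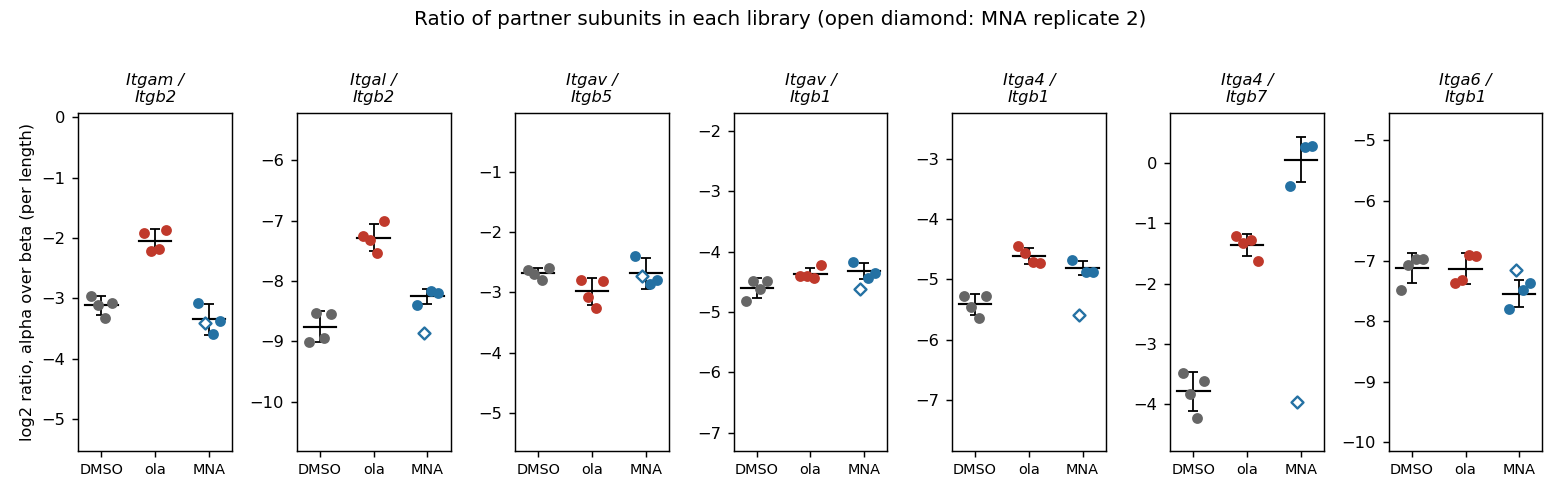
Log2 ratio of the alpha chain to its beta partner in each library, from CPM per kb, for 7 known pairs. Points are libraries, bars the mean with its SD (n = 4, or n = 3 for MNA), the open diamond is MNA replicate 2, and every panel spans the same number of log2 units. The ratio of Itga4 to Itgb7 went from -3.78 with DMSO to -1.36 with olaparib (ola) and 0.05 with MNA, and the ratio of Itgam to Itgb2 stood higher with olaparib.

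Itgb1, the partner of many alpha chains, was the subunit called lower with olaparib. It stood at 782, 698, 751 and 722 CPM with DMSO and at 612, 644, 637 and 594 CPM with olaparib, with no overlap. MNA replicates 1, 3 and 4 held 704, 691 and 659 CPM, and replicate 2 held 761 CPM. The change was small, -0.25 ± 0.07 with olaparib (adjusted p = 0.0173, and 0.0529 without olaparib replicate 4), and with MNA it was -0.07 ± 0.07 (adjusted p = 0.432), or -0.11 ± 0.06 without replicate 2 (adjusted p = 0.122).

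Itgav, the alpha chain of vitronectin receptors, was called in none of the 3 comparisons, with or without MNA replicate 2. It ranged from 72.9 to 85.0 CPM with DMSO, from 76.0 to 83.3 CPM with olaparib and from 84.0 to 102 CPM in MNA replicates 1, 3 and 4, with 81.7 CPM in replicate 2. The difference with olaparib was -0.02 ± 0.08 (adjusted p = 0.887) and that with MNA 0.14 ± 0.08 (adjusted p = 0.187). Its partner Itgb5 stood at 149, 176, 185 and 170.1 CPM with DMSO and at 174, 223, 245 and 195 CPM with olaparib, and these libraries overlapped. The rise with olaparib was 0.30 ± 0.10 (adjusted p = 0.0495), just inside the threshold, and the call was lost in 13 of the alternatives tried (adjusted p up to 0.149). With MNA the difference was 0.15 ± 0.10 (adjusted p = 0.282).

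Itga6, the laminin receptor chain, was the lowest of the 9 per length. It ranged from 9.66 to 13.4 CPM with DMSO, from 8.20 to 11.8 CPM with olaparib and from 7.03 to 8.85 CPM in MNA replicates 1, 3 and 4, with 11.8 CPM in replicate 2. The difference was -0.25 ± 0.17 with olaparib (adjusted p = 0.286), and -0.38 ± 0.17 with MNA (adjusted p = 0.102). Without replicate 2 the level with MNA was called lower, at -0.54 ± 0.15 (adjusted p = 0.00729).

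**Figure D3:**
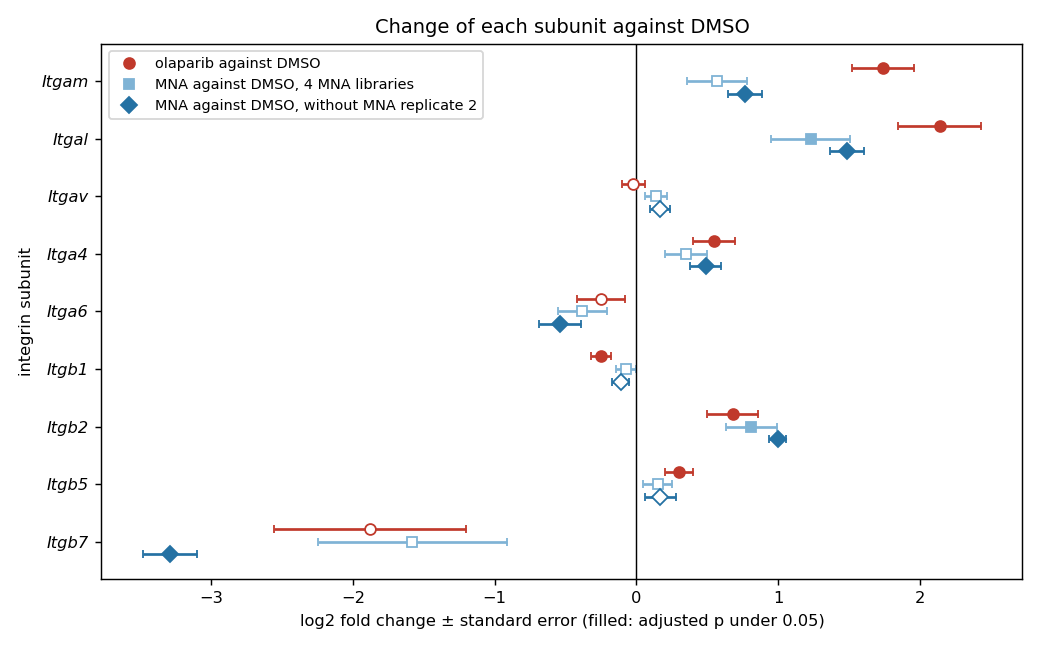
Log2 fold change of each subunit against DMSO with its standard error, from edgeR, with olaparib (circles) and with MNA, using all 4 MNA libraries (squares) or leaving out MNA replicate 2 (diamonds). Filled symbols have an adjusted p under 0.05. Itgam and Itgal changed most upward with olaparib (1.74 and 2.14), and Itgb7 was at -1.88 with olaparib and -3.29 with MNA without replicate 2.

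As RNA, the 4 beta chains shifted toward Itgb2. Of their summed per-length RNA, Itgb2 made up 72.4% ± 1.45 with DMSO, 84.1% ± 0.556 with olaparib and 86.9% ± 0.295 in MNA replicates 1, 3 and 4. The share of Itgb7 was 5.65% ± 0.709, 1.12% ± 0.120 and 0.348% ± 0.139 in the same order, and that of Itgb1 was 17.4% ± 0.563, 10.6% ± 0.197 and 9.67% ± 0.329. MNA replicate 2 had shares of 71.9% for Itgb2 and 5.71% for Itgb7, both within the DMSO range. Of the 5 listed alpha chains, Itgam held 85.4% ± 1.67 with DMSO, 92.8% ± 0.595 with olaparib and 87.9% ± 1.34 in MNA replicates 1, 3 and 4. All these shares are within the listed members only. Outside them, with DMSO, stood Itgax at 344 CPM per kb (Itgam was at 87.5), Itgb3 at 162 and Itga5 at 56.6.

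**Figure D4:**
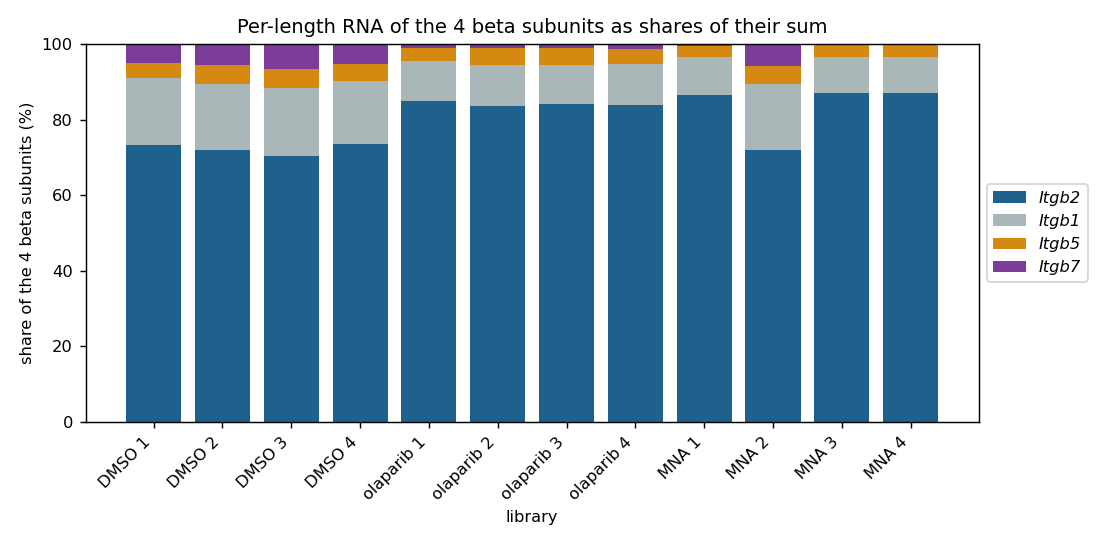
Share of each of the 4 beta subunits in their summed CPM per kb, in percent, for each of the 12 libraries. Itgb2 took 70.4% to 73.7% in the DMSO libraries, 83.7% to 84.9% with olaparib and 86.5% to 87.1% with MNA, except in MNA replicate 2 (71.9%), and the share of Itgb7 shrank in the same libraries.

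Of 18 other integrin subunits, 10 passed the filter, and 3 were higher and 1 lower with olaparib (30% and 10%, beside 14.3% and 12.8% of all genes), 2 higher and 1 lower with MNA (20% and 10%, beside 16.3% and 12.3%). The counts were 3 higher and 2 lower with olaparib (beside 22.5% and 21.2% of all genes) and 3 of each with MNA (beside 27.2% and 26.9%) once MNA replicate 2 was left out. Itgax (CD11c), a further alpha partner of Itgb2, was the most abundant of them at 344 CPM per kb with DMSO. It was higher with olaparib (0.62 ± 0.11, adjusted p = 0.00214) and with MNA (0.30 ± 0.11, adjusted p = 0.0491). Itgad (CD11d), which also pairs with Itgb2, stood at 25.4 CPM per kb and was higher with olaparib (0.72 ± 0.15, adjusted p = 0.0055) but not called with MNA (0.21 ± 0.15, adjusted p = 0.285). With MNA replicate 2 left out, Itgad was called higher with MNA as well (0.33 ± 0.12, adjusted p = 0.0307). Itgax and Itgad share 10.7% of the 31-base words of Itgax and 11.3% of those of Itgad, so their counts are not fully separate. Itgb3, the partner of Itgav in the osteoclast vitronectin receptor, stood at 162 CPM per kb and was lower with olaparib (-0.75 ± 0.16, adjusted p = 0.00678) and with MNA (-0.53 ± 0.16, adjusted p = 0.0338). Itga5, the fibronectin receptor chain, stood at 56.6 CPM per kb and differed by -0.23 ± 0.19 and -0.53 ± 0.19, neither a call. Without MNA replicate 2 it was lower with olaparib (-0.23 ± 0.06, adjusted p = 0.00539) and with MNA (-0.84 ± 0.06, adjusted p = 1.33e-07). Itgb8 was at 0.236 CPM per kb and not called.

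Of 43 activators and adaptors listed, 37 were tested, and 12 were higher and 5 lower with olaparib (32.4% and 13.5%, beside 14.3% and 12.8% of all genes), with a median change of 0.10, while 8 were higher and 10 lower with MNA (21.6% and 27.0%, beside 16.3% and 12.3%), with a median of 0.04. Without MNA replicate 2, when 38 were tested, 16 were higher and 9 lower with olaparib (42.1% and 23.7%, beside 22.5% and 21.2% of all genes), and 13 were higher and 13 lower with MNA (34.2% each, beside 27.2% and 26.9%). Talin-recruiting Apbb1ip (RIAM) rose from 68.4 ± 10.1 to 127 ± 4.13 CPM with olaparib (0.89 ± 0.19, adjusted p = 0.00615) and was 130 ± 11.3 CPM in MNA replicates 1, 3 and 4 (0.73 ± 0.19 with all 4, adjusted p = 0.021). Rasgrp2, which activates Rap1, rose with olaparib from 2.12 ± 0.580 to 8.04 ± 0.849 CPM (1.93 ± 0.22, adjusted p = 2.06e-04). The adaptor Fyb (ADAP) rose with olaparib by 1.06 ± 0.10 (adjusted p = 6.20e-05). With MNA, the actin regulator Evl rose by 1.07 ± 0.25 (adjusted p = 0.0171), and the focal adhesion protein Tns1 and the docking protein Nedd9 were lower, at -1.44 ± 0.28 (adjusted p = 0.0142) and -0.82 ± 0.27 (adjusted p = 0.0405). Without MNA replicate 2 all of these were also called with olaparib. Evl was higher (0.63 ± 0.09, adjusted p = 8.37e-05) and Nedd9 lower (-0.32 ± 0.08, adjusted p = 0.00584). Tns1 was higher with olaparib (0.69 ± 0.23, adjusted p = 0.0247), opposite to MNA.

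All 14 genes listed for signalling next to the receptor were tested. They are mostly kinases, with the phospholipase Plcg2, the exchange factors Vav1 and Vav3 and the adaptor Lcp2 among them. With olaparib 4 were higher and 2 lower (28.6% and 14.3%, beside 14.3% and 12.8% of all genes, median 0.32), and with MNA 7 were higher and 2 lower (50% and 14.3%, beside 16.3% and 12.3%, median 0.34), where the median over all genes was 0.00 in both. There were 9 higher and 3 lower with olaparib (64.3% and 21.4%, beside 22.5% and 21.2% of all genes), and 8 higher and 3 lower with MNA (57.1% and 21.4%, beside 27.2% and 26.9%), once MNA replicate 2 was left out. Ptk2b (Pyk2), a FAK family kinase, rose with both by 0.69 ± 0.16 (adjusted p = 0.0086) and 0.75 ± 0.16 (adjusted p = 0.0142), and so did the exchange factor Vav1 by 0.55 ± 0.10 (adjusted p = 0.00282) and 0.41 ± 0.10 (adjusted p = 0.0187). The Src family kinase Lyn rose with MNA by 0.91 ± 0.20 (adjusted p = 0.015). Lyn was not called with olaparib (0.43 ± 0.20, adjusted p = 0.117), but it was without MNA replicate 2 (0.43 ± 0.06, adjusted p = 4.19e-05). Fgr was lower with MNA (-1.92 ± 0.48, adjusted p = 0.0194) and not called with olaparib (1.23 ± 0.44, adjusted p = 0.0555). With MNA replicate 2 left out, Fgr was at -2.77 ± 0.34 with MNA (adjusted p = 1.38e-05) and was called higher with olaparib (1.24 ± 0.24, adjusted p = 0.00107).

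Of 47 integrin ligands, 27 were tested, and 9 were higher and 1 lower with olaparib (33.3% and 3.7%, beside 14.3% and 12.8% of all genes, median 0.55), 8 higher and 8 lower with MNA (29.6% each, beside 16.3% and 12.3%, median -0.14). Without MNA replicate 2, of 29 tested, 16 were higher and 2 lower with olaparib (55.2% and 6.9%, beside 22.5% and 21.2% of all genes), and 11 were higher and 11 lower with MNA (37.9% each, beside 27.2% and 26.9%). Icam1, the ligand of LFA-1 and Mac-1, rose from 19.7 ± 2.24 to 68.0 ± 6.89 CPM with olaparib (1.79 ± 0.29, adjusted p = 0.00148) and stood at 61.6 ± 14.6 CPM in MNA replicates 1, 3 and 4 and 21.2 CPM in replicate 2 (1.39 ± 0.28 with all 4, adjusted p = 0.0142). C3, the source of the Mac-1 ligand iC3b, rose with both by 2.65 ± 0.47 (adjusted p = 0.00255) and 1.57 ± 0.45 (adjusted p = 0.0282). Mfge8, which bridges dying cells to alpha V integrins, rose with olaparib by 1.67 ± 0.14 (adjusted p = 2.51e-05). With MNA, Mfge8 was called higher only without replicate 2 (0.33 ± 0.11, adjusted p = 0.0193). The laminin chain Lama4 was higher with olaparib (1.52 ± 0.51, adjusted p = 0.0447) and lower with MNA (-1.75 ± 0.58, adjusted p = 0.0415), at a mean of 5.33 CPM or less in every group. With MNA replicate 2 left out, the difference of Lama4 with MNA was -3.08 ± 0.43 (adjusted p = 4.06e-05). Lamb2 rose with MNA by 2.94 ± 0.61 (adjusted p = 0.0142). Without MNA replicate 2, Lamb2 was also called higher with olaparib (1.36 ± 0.28, adjusted p = 0.00148), at a mean of 2.46 CPM.

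Over the 12 libraries, the RNA whose centred log2 level was nearest to that of Itgb2 was Ptk2b, with a root mean square difference of 0.0669 where Itgb2 itself varied by 0.42, followed by Plekha2 (0.0700). Nearest to Itgam were Gna15 (0.187) and Sh2d3c (0.191), to Itgal Cd300c2 (0.239) and Gclm (0.248), and to Itgb7 Amotl1 (0.325) and Fabp4 (0.343), where these members varied by 0.79, 0.98 and 1.38. For Itga4 they were Mavs (0.0999) and Arhgap31 (0.102), for Itgb1 Trip11 (0.0407) and Ubxn6 (0.0480), for Itgb5 Ifih1 (0.0886) and Zbtb42 (0.0902), for Itgav Cep192 (0.0535) and Sbno1 (0.0602), and for Itga6 Lap3 (0.0861) and Rnh1 (0.0958). The points share libraries and treatments, so these values are descriptions.

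Integrins of this list are also carried by other blood cells, and in bulk RNA fewer cells of a type and less RNA per cell cannot be told apart. The 10 neutrophil markers, of which 4 were tested, summed to 1.38 to 10.9 CPM with DMSO and 3.07 to 4.09 CPM with olaparib. In MNA replicates 1, 2, 3 and 4 their sum was 5.31, 1.47, 10.6 and 69.3 CPM. Of these markers 1 of 4 tested was called higher with MNA (Cxcr2), and 5 of 5 without MNA replicate 2. The 7 erythroid markers summed to 56.1 CPM in replicate 4 and to 4.03 CPM or less elsewhere. In MNA replicates 1, 3 and 4, Itgb2 was 4538, 4722 and 4550.2 CPM. In the same order Itgam was 891, 644 and 720.4 CPM and Itgal 28.8, 35.3 and 33.3 CPM. Whether the marker sums bear on these levels was not tested. The 7 eosinophil markers summed to 31.4 to 59.1 CPM with olaparib and 3.99 to 7.02 CPM with DMSO, of which Siglecf made up the most, and Epx, Prg3 and Il5ra had 3 counts or fewer in every library. The 7 platelet markers (46.5 to 75.0 CPM with olaparib, 11.3 to 20.3 CPM with DMSO) and the 7 T and NK cell markers (11.1 to 19.2 against 2.48 to 4.02 CPM) were also higher, mostly through Pf4, Treml1 and Klrb1c, while Gp9, Gp1bb and Gp6 had 3 counts or fewer in every library. In MNA replicates 1, 3 and 4 the sums were 28.5 to 31.9 CPM for platelet markers and 2.65 to 5.35 CPM for T and NK cell markers. The 6 B cell markers summed to 0.281 to 1.81 CPM with DMSO, 1.27 to 2.79 CPM with olaparib and 3.38 to 6.95 CPM in MNA replicates 1, 3 and 4, and 3 of 3 tested were called higher with MNA, with or without replicate 2. The 7 dendritic cell markers (17.5 to 26.7 CPM), 10 mast cell and basophil markers (5.66 to 10.1 CPM, with Mcpt4 at 0 throughout), 9 stromal and endothelial markers (1.89 to 6.58 CPM) and 7 progenitor markers (2.81 to 7.12 CPM) had these ranges over all libraries. Single genes among them differed in the fit of 12 libraries. The dendritic cell marker Ccr7 and the progenitor marker Cd34 were called higher with both agents (log2 fold change 2.62 and 2.60 with olaparib, 4.55 and 3.53 with MNA). Xcr1 was called lower with olaparib (-1.19). With MNA, Pdgfrb was called higher (2.96) and Cdh5 lower (-2.90). The others tested in these lists were not called. The part of these cells in the integrin results was not tested.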

How the data were processed

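Per the labels and the study's methods, the authors extracted RNA with Trizol, made libraries with the Illumina Stranded mRNA Prep kit, aligned reads with STAR 2.5.2b to GRCm38.p5 (mm10) and counted them per gene; the submitters' processing notes also name DESeq2 and R 3.6.0. The strand column of the counts is not given in the sources used here. The deposited values are raw counts per Ensembl gene, 1 table for each of 12 libraries, and 34490 of 35275 IDs had a symbol.

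Counts were tested with edgeR 4.0.16 (R 4.3.3; quasi-likelihood F test, TMM normalization, filterByExpr with a minimum count of 10 and total of 15), in 1 fit of the 12 libraries, with Benjamini-Hochberg adjustment over all genes tested and a threshold of 0.05. The standard error is the log2 fold change divided by the square root of F. DESeq2 1.42.0 was an alternative. CPM used TMM-scaled library sizes. On simulated counts of 12693 genes for olaparib against DMSO, 172 of 193 changed genes tested were recovered, with 8 false calls.

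Deviations from the group means were correlated between libraries of 1 number to see whether the numbers pair them. Olaparib and DMSO gave 0.227, 0.172, 0.225 and 0.408, so a fit with the replicate number as a block is given beside the main fit, which has none. The block covers all 12 libraries, MNA included. Correlations between libraries of different numbers are not given, so the pairing itself was not tested.

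All 9 members are named. Of each other integrin list, the 3 called genes of largest change in either treatment contrast, given a mean count of 50 or more, and the other subunits at that mean, are named, as are the 2 RNAs nearest to each member. A gene that this rule names among the signalling genes is not reported here. The members and lists were chosen with earlier results of these data known. Sequences come from RefSeq and GENCODE, with Python scripts. Protein sequences were not used here.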

Additional observations from a re-analysis of the deposited data

Results flagged for a closer look

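In groups of 4 libraries, 4 of the 27 group and gene combinations had 1 library far from the rest by Dixon's test, where chance gives about 1 in 20. In the MNA group, replicate 2 stood at 2322 CPM for Itgb2 and at 167 CPM for Itgb7, where the other MNA libraries held 4538 to 4722 CPM and 12.5 to 24.2 CPM. Also in the MNA group, replicate 1 stood at 102 CPM for Itgav, above 81.7 to 84.7 CPM in the others. In the DMSO group, replicate 3 stood at 190.1 CPM for Itgb7, above 152 to 155 CPM in the others.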

How the results depend on the processing

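The 9 subunits in 3 comparisons under each alternative gave 645 values with a p, of which 566 kept both their direction and their side of the threshold, 40 lost a call, 31 gained one and 8 turned in sign. DESeq2 gave no p for Itgb7 in the 12 libraries. Shares of all genes called are given only for the main fit and for the fit without MNA replicate 2. The counts of calls below, under the other alternatives, are therefore not read as a result about the subunits. Itgam with olaparib was called in every alternative (1.66 to 1.82 on the log2 scale), as was Itgal (2.07 to 2.24). The lowest count of a member in any library was 171, and the effect of depth on the calls was not tested.

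Leaving out 1 library at a time gave 3 to 5 subunits higher and 0 to 2 lower for olaparib against DMSO, 0 to 4 higher and 0 to 2 lower for MNA against DMSO, and 1 to 3 higher and 0 to 1 lower for olaparib against MNA. The MNA calls of Itgal and Itgb2 were lost without MNA replicate 3 or 4 (0 higher), at log2 fold changes of 1.08 and 1.11 for Itgal and 0.73 and 0.75 for Itgb2, and in the fit of those 2 groups alone (0 higher). The call of Itgal for olaparib against MNA was lost without any 1 of the olaparib libraries or without MNA replicate 1, and in the fit of those 2 groups alone (1 higher). The 2-group fit for olaparib against DMSO called 2 lower, as Itgb7 joined.

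At an adjusted p under 0.01, olaparib against DMSO had 2 higher and 0 lower, MNA against DMSO 0 higher, and olaparib against MNA 1 higher. With a change of at least 2-fold these were 2 higher and 0 lower, 1 higher, and 1 higher. Olaparib against MNA had 1 lower (Itgb1) with total counts normalization and 1 lower in DESeq2. In DESeq2 without MNA replicate 2, olaparib against DMSO had 2 lower, MNA against DMSO 4 higher and 2 lower, and olaparib against MNA 2 lower.

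For MNA and DMSO the correlations of same-numbered deviations were 0.242, 0.114, -0.009 and 0.277, and for olaparib and MNA 0.070, 0.137, 0.131 and 0.392. These values overlap with those for olaparib and DMSO, so they do not settle which libraries the numbers pair. With the replicate block, olaparib against DMSO had 2 lower (Itgb7 joined) and MNA against DMSO 3 higher (Itgam joined, adjusted p = 0.0342) and 1 lower (Itgb7, which went from -1.58 to -2.31, adjusted p = 0.0292). DESeq2 also had 3 higher for MNA against DMSO. With the replicate block and without MNA replicate 2, there were 3 lower for olaparib against DMSO, 5 higher and 2 lower for MNA against DMSO, and 4 higher and 1 lower for olaparib against MNA. Without that library alone, the shares of all genes were 22.5% higher and 21.2% lower, 27.2% and 26.9%, and 21.5% and 20.7% in the same order. The shares with the block as well are not given.

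Itgav with olaparib, which was never called, turned to 0.01 with upper quartile normalization, with genes of a mean count under 50 left out and without DMSO replicate 4, and to 0.00 without olaparib replicate 1, with -0.06 to 0.01 over the libraries left out in turn. Itgb7 for olaparib against MNA turned from -0.30 to 0.39 with the replicate block, to 1.41 without MNA replicate 2 (-0.63 to 1.41 over the libraries left out in turn), to 1.44 with both and to 1.41 in DESeq2 without that library. The cause was not tested, apart from the library left out.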
